A study of Mus musculus with 10 samples.

Results

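RNA sequencing measured 20206 genes in 10 mouse embryonic stem cell (ESC) lines. Of these, 14 autosomal genes had values near 0 in some lines and of 100 or more in others. In 4 of the 14 almost no sequence is their own, so a 0 there can be a failed estimate and a high value is uncertain too. The 14 genes were selected on their values. A gene was taken as off in a line at a normalised value of 5 or less and as on at 100 or more. It had to be off in at least 2 lines and on in at least 2. The on threshold is not a high level, since 10455 of the 20206 genes had a mean of 100 or more. Of the genes in the table, 18927 lie on an autosome outside 2 excluded windows, chromosome 2 from 174500000 to 178500000 and chromosome 4 from 145000000 to 147950000, and 14 of these met both thresholds. On any chromosome 17 genes did, of which 2 lie on the X chromosome, 0 on the Y chromosome and 0 in the windows. The remaining gene has no position and holds the same 10 values as Egr2, so it was counted once with Egr2. The states are therefore a description, and they were given no test.

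The lines came from C57BL/6 blastocysts. Mothers of 7 to 9 weeks of age were fed either low protein diet (LPD, 9% casein) or normal protein diet (NPD, 18% casein) from mating to embryonic day 3.5, and 5 lines of each diet were sequenced, LPD lines 1, 4, 6, 20 and 40 and NPD lines 8, 15, 21, 36 and 51. By the study's methods each line is male, of normal karyotype and from a different mother, was derived on a feeder layer of mouse embryonic fibroblasts, and was grown without fibroblasts for RNA extraction. Each value is an estimated read count per gene, scaled by the authors so that lines of different depth can be compared.

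The lines differed in depth. A read was worth 0.727 to 2.88 units of the normalised value, the most in LPD line 4, so that the off threshold of 5 stood for 1.74 reads in LPD line 4 and for up to 6.88 reads in the other lines. A listed 0 allows up to 3 reads, which is 8.64 units in LPD line 4, 4.74 in LPD line 40 and 2.18 to 4.16 in the other lines, and these limits cover counting error only. The 17 pluripotency markers, among them Pou5f1, Nanog and Sox2, were detected in every line. The Y-linked gene Ddx3y was at 7.70 in NPD line 15 and at 174 in LPD line 4, against 1110 to 1493 in the rest, and 334 X-linked genes had a median log2 deviation of 0.49 in NPD line 15, of 0.00 in LPD line 4 and of at most 0.06 in size in any line but NPD line 15. NPD line 15 thus goes against the male label by both measures and LPD line 4 by Ddx3y alone. Leaving out both left 5 of the 14 genes, Gm28438, Ptprt, Gm20388, Egr3 and Prr18.

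Mouse ESCs keep the pluripotency network active and most lineage genes silent, yet lines from different embryos differ in genes outside that network. Immediate early genes are switched on within minutes of a growth factor or stress signal, without new protein synthesis. Genes of fibroblasts and other stromal cells are low in undifferentiated ESCs. Pseudogenes and readthrough transcripts repeat the sequence of other genes, and a program that assigns short reads to transcripts has to share such reads among them. All 3 kinds were present among the 14 genes.

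The lines differed in which genes were on. LPD lines 1 and 6 each had 6 of the 14 genes on, LPD line 4 had 5, LPD lines 20 and 40 and NPD line 15 had 4, NPD lines 21 and 51 had 3, NPD line 36 had 2 and NPD line 8 had 1. LPD line 40 had the most genes off, 9 of 14. LPD line 6 and LPD line 40 stood in opposite states for 7 genes and shared the on state of 1, whereas LPD line 40 and NPD line 21 shared 3 genes on and 7 off. Out of 45 possible pairs of lines, 8 held the highest 2 values of some gene. LPD lines 1 and 4 led 4 genes and LPD line 6 with NPD line 15 led another 4, or 28.6% of the 14 in each case. Over the 14354 genes whose mean reached 10, LPD lines 1 and 4 led 4.74% and LPD line 6 with NPD line 15 led 4.05%. Over the pairs the median was 1.76% and the highest share 6.16%, for LPD line 40 with NPD line 21. The rule used these same values, so the shares of the 14 are a description and no enrichment is read from them. The heat map of the values shows the genes led by LPD lines 1 and 4 and by LPD line 6 with NPD line 15 as blocks.

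**Figure D1:**
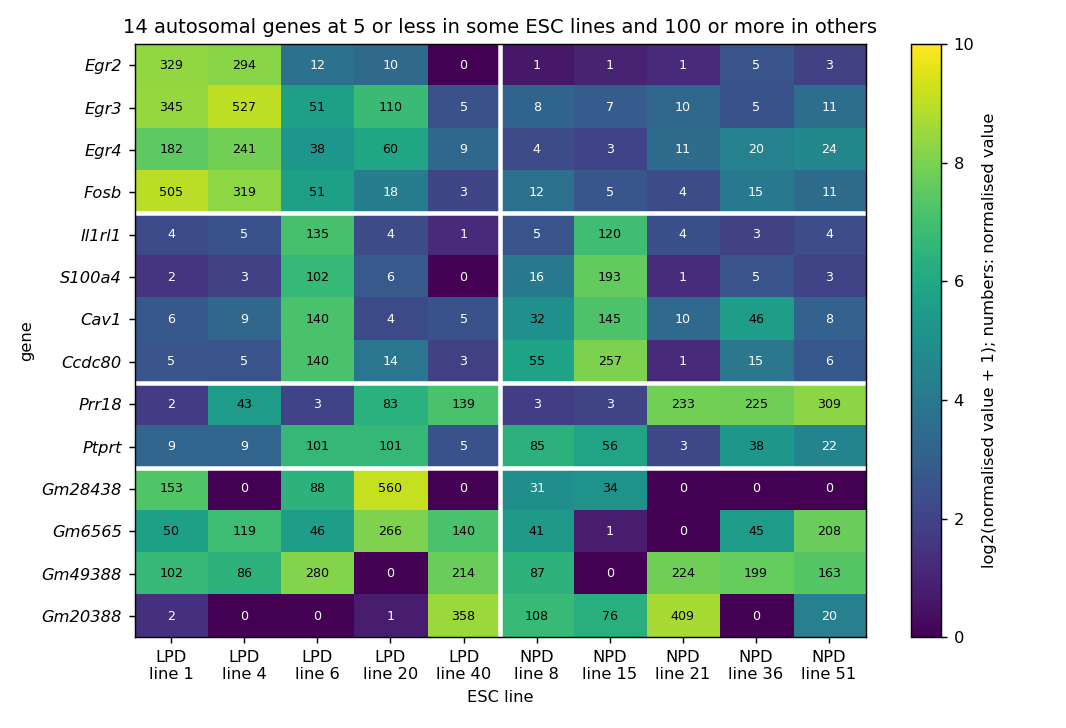
Normalised values of the 14 genes (rows) in the 10 ESC lines (columns, LPD left of the white vertical line and NPD right of it), with colour giving log2(value + 1) and the number in each cell the value itself. The upper block, Egr2 to Fosb, is brightest in LPD lines 1 and 4, the next, Il1rl1 to Ccdc80, in LPD line 6 and NPD line 15, and the lowest block, the genes with almost no sequence of their own, changes from line to line with exact zeros.

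The 4 genes led by LPD lines 1 and 4 are transcription factors of the immediate early class. Egr2, Egr3 and Egr4 are zinc finger factors of the early growth response family, and Fosb is a leucine zipper factor that pairs with Jun proteins. Egr2 (ENSMUSG00000037868, GRCm38 chromosome 10, 67535475 to 67542188) was at 329 in LPD line 1 and 294 in LPD line 4. LPD lines 6, 20 and 40 held 12.2, 10.0 and 0, and NPD lines 8, 15, 21, 36 and 51 held 0.573, 0.991, 1.28, 5.00 and 2.87. Only LPD lines 1 and 4 were on, and all 5 NPD lines were off. The second gene identifier with the same values may share the reads of Egr2, so that its level is uncertain. That does not change LPD lines 1 and 4 as the highest lines. The order among the lowest lines is not certain, since the 0 of LPD line 40 allows up to 4.74.

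Egr3 (ENSMUSG00000033730, chromosome 14, 70077203 to 70082614) was at 345, 527, 50.8, 110 and 4.54 in LPD lines 1, 4, 6, 20 and 40. In the NPD lines it was at 8.22, 6.53, 9.52, 4.69 and 11.3, in the order of the line numbers. Thus 4 LPD lines lay above every NPD line and LPD line 40 lay below them all. Egr4 (ENSMUSG00000071341, chromosome 6, 85511121 to 85513589) was at 182, 241, 37.6, 60.3 and 9.49 in the LPD lines and at 3.90, 3.04, 10.6, 20.2 and 23.9 in the NPD lines. The same 4 LPD lines were above every NPD line, and LPD line 40 lay within the NPD range. Fosb (ENSMUSG00000003545, chromosome 7, 19302696 to 19310051) was at 505, 319, 50.8, 17.6 and 3.22 in the LPD lines and at 11.9, 5.44, 3.84, 15.3 and 10.5 in the NPD lines. LPD lines 1, 4, 6 and 20 were again above every NPD line. LPD line 40 was the lowest of the 10, but its 3.22 stood for 2.04 reads, so this order is not certain either. Without LPD line 4 only Egr3 of the 4 factors still met the rule, since LPD line 1 was then the only line on for the others.

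A list of 35 immediate early genes, written after the values had been seen, holds these 4 and 29 further genes whose mean reached 10. Of the 29, 10 (34.5%) had their highest 2 values in LPD lines 1 and 4, namely Arc, Atf3, Btg2, Dusp1, Egr1, Fos, Ier2, Jun, Junb and Zfp36. Over all 14354 genes tested these lines led 4.74%. Without LPD line 4, LPD line 1 was the highest for 11 of the 29 (37.9%, against 12.3% of all genes tested), and without LPD line 1, LPD line 4 was the highest for 12 (41.4%, against 12.7%). The median log2 deviation of the 29 genes was 0.58, 0.86, 0.70 and 0.81 in LPD lines 1, 4, 6 and 20 and -0.44 to -0.09 in the other 6 lines, so LPD lines 6 and 20 were as high as LPD lines 1 and 4 by this measure. None of the 29 was off in 2 lines. Egr1, named here after its values were seen, was at 16051 and 15176 in LPD lines 1 and 4 and at 118 to 2188 elsewhere.

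Promoter sequences of 8 of the 14 genes were available from RefSeq (GRCm38.p6), each running from 250 bases before to 50 bases after an annotated start. Those of 3 of these factors are printed to show how they differ in sequence. Capitals mark a CArG box, the binding motif of serum response factor known from immediate early genes, searched on both strands with no mismatch. Egr2 has 5 annotated starts, and the window shown belongs to the third.

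Egr2, chr10:67537619-67537918, plus strand: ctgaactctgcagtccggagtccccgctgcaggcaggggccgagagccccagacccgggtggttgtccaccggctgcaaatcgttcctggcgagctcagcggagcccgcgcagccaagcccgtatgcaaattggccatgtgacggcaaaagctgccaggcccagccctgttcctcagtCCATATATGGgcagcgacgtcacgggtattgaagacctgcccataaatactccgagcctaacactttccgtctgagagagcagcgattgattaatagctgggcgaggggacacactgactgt
Egr4, chr6:85513540-85513839, minus strand: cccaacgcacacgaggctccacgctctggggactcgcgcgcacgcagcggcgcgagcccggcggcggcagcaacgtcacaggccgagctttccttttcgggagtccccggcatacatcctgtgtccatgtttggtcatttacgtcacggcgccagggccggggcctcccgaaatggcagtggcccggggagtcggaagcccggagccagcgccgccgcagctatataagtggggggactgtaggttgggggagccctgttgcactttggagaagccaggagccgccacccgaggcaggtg
Fosb, chr7:19309996-19310295, minus strand: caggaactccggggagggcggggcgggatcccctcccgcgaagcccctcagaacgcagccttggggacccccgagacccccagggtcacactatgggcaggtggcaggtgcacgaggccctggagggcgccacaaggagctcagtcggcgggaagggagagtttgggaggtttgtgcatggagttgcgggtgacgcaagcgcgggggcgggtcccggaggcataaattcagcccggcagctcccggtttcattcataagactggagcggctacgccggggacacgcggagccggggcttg

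The CArG box of Egr2 begins 72 bases before this start, and 4 of its 5 windows, some of which overlap, hold such a box. No box in this strict form lies in the windows of Egr4, Fosb or the other 5 genes with a sequence. Among 32851 promoter windows outside chromosome 18, 1.63% hold it. The letters TGACGTCA, the full cyclic AMP response element, are in 1.79% of the windows and in 0 of those of the 8 genes. The windows of Egr4 and Fosb hold 30 and 25 CG dinucleotides and those of Egr2 16 to 32, against a median of 7 over all windows.

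The 4 genes led by LPD line 6 and NPD line 15 encode a receptor, a calcium-binding protein, a membrane coat protein and a secreted protein. Il1rl1 (ENSMUSG00000026069, chromosome 1, 40429570 to 40465415), the receptor of the alarmin interleukin 33, was at 135 in LPD line 6 and 120 in NPD line 15. In the other LPD lines it was at 3.75, 4.70, 3.97 and 1.30, and in the other NPD lines at 5.01, 4.37, 2.95 and 4.21. No line lay between 5.01 and 120, and 7 lines were off. The 4.70 of LPD line 4 stood for 1.63 reads.

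S100a4 (ENSMUSG00000001020, chromosome 3, 90603771 to 90606045), a calcium-binding protein used as a fibroblast marker, was at 102 in LPD line 6 and 193 in NPD line 15. It was at 1.87, 2.78, 5.98 and 0 in LPD lines 1, 4, 20 and 40 and at 15.7, 1.44, 5.04 and 3.17 in NPD lines 8, 21, 36 and 51. Of its 31-base words, 49.2% are shared with the readthrough gene Gm42674, which is not used here. Cav1 (ENSMUSG00000007655, chromosome 6, 17306335 to 17341452), the main coat protein of caveolae, was at 140 in LPD line 6 and 145 in NPD line 15. It was at 5.80, 8.73, 3.69 and 4.81 in the other LPD lines and at 31.6, 9.56, 46.1 and 7.79 in NPD lines 8, 21, 36 and 51. NPD lines 8 and 36 thus took a middle place for Cav1.

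Ccdc80 (ENSMUSG00000022665, chromosome 16, 45093402 to 45128077), a secreted protein that binds the extracellular matrix, was at 140 in LPD line 6 and 257 in NPD line 15. It was at 5.17, 4.86, 14.3 and 2.68 in the other LPD lines and at 55.4, 1.28, 14.6 and 5.79 in the other NPD lines. NPD line 8 was the next line for Ccdc80 and S100a4, as NPD line 36 was for Cav1. The plot of both groups of genes by line shows that their leading lines do not coincide.

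**Figure D2:**
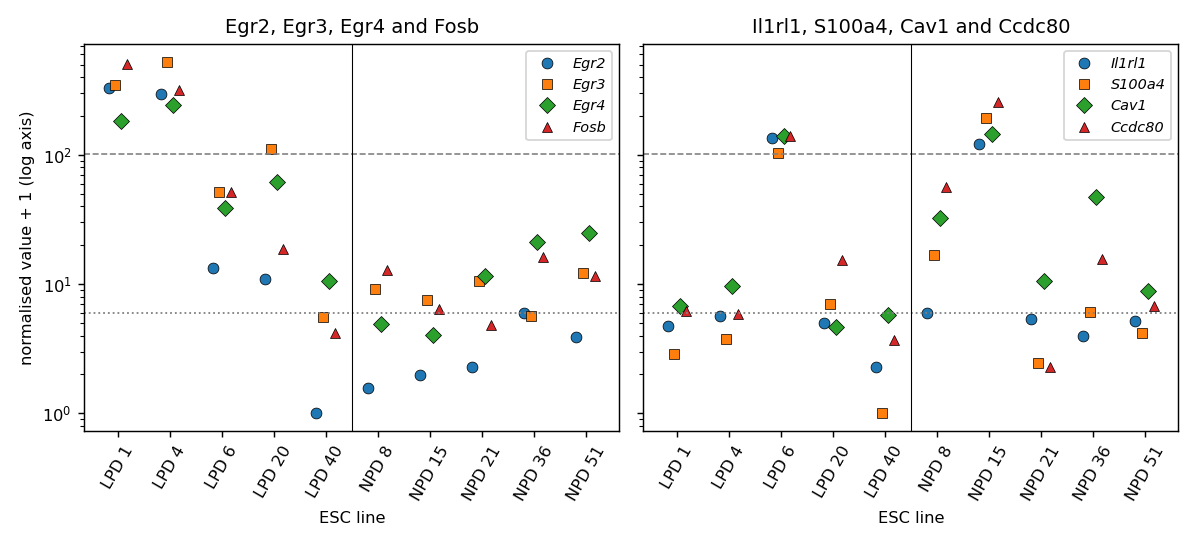
Normalised value + 1 on a log axis for 4 immediate early factors (left) and for Il1rl1, S100a4, Cav1 and Ccdc80 (right) in each ESC line, 1 point per gene and line, with the on threshold of 100 dashed, the off threshold of 5 dotted and the diets parted by the vertical line. Left, LPD lines 1 and 4 hold every point above the dashed line except Egr3 in LPD line 20. Right, the points above it are those of LPD line 6 and NPD line 15.

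Most markers of a mesenchymal list had the same leading lines, though of the 4 genes that list holds only S100a4. In a list of 16 mesenchymal markers, which holds S100a4, 12 further genes reached a mean of 10, and 10 of them (83.3%) had their highest 2 values in LPD line 6 and NPD line 15, among them Col1a1, Col3a1, Lox and Fbln2, against 4.05% of all genes tested. Lum is also counted there, but its 1.39 in LPD line 6 is about 1 read, and without it 9 of 11 (81.8%) had these leading lines. Without NPD line 15, LPD line 6 was the highest for 11 of the 12 (91.7%, against 15.4% of all genes tested). The summed value of the 12 was 7837 in LPD line 6 and 8931 in NPD line 15, 3668 in NPD line 8, 2527 in NPD line 36 and 737 to 1202 in the other 6 lines. All 12 were detected in LPD line 6, NPD line 15 and NPD line 36. In the other lines only Lum and Prrx1 of the 12 were listed at 0, Prrx1 in LPD lines 4 and 40. Lum, a defining fibroblast marker, was at 111 in NPD line 15 and 0.721 in NPD line 36, and at 0 in the remaining 7 lines. Other marker lists moved in the same lines. The 15 primitive endoderm markers had a median log2 deviation of -1.48 in LPD line 6 and -2.85 in NPD line 15, with 0 of 15 above the median of the lines in either, and NPD line 8 stood at -1.06. The 22 genes of the two-cell-like state stood at -1.46 and -2.03, again with 0 of 22 above it. The 13 trophectoderm markers stood at 0.59 and 0.69. NPD line 8 was at -0.67 for the two-cell-like genes, also with 0 of 22 above the median. For the trophectoderm markers it was at 0.54. The part of these lists in the values was not tested. In whole cultures, more cells of a type and more RNA per cell cannot be told apart, and the part of stromal cells in the values of Il1rl1, S100a4, Cav1 and Ccdc80 was not tested. NPD line 15, in which Ddx3y was almost absent, is a leading line of all 4 genes. Without it none of them met the rule, because LPD line 6 alone was then on.

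Promoter windows of S100a4 and of the upstream starts of Il1rl1 and Cav1 are shown beside those of the factors above, from the same build. Capitals mark the letters TATAAA or their reverse complement.

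S100a4, chr3:90603520-90603819, plus strand: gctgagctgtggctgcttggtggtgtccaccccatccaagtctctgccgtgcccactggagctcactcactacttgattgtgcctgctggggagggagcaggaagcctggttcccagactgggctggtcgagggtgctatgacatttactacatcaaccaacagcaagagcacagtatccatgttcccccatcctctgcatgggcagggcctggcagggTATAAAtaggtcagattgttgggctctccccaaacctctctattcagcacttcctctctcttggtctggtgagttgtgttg
Il1rl1, chr1:40429320-40429619, plus strand: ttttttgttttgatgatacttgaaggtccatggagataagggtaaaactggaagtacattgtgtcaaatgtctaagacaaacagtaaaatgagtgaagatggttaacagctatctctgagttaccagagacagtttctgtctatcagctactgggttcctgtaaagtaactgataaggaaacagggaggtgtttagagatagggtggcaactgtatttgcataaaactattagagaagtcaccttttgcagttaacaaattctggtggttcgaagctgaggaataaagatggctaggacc
Cav1, chr6:17306085-17306384, plus strand: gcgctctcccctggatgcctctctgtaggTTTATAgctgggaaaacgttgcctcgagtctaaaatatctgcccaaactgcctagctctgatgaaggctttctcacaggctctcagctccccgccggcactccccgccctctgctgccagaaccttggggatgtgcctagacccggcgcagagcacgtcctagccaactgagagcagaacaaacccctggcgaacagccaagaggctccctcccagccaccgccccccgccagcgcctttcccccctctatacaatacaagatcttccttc

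In S100a4 the letters begin 31 bases before the start, and in Cav1 they lie on the other strand, 221 bases before it. They are present in 13.6% of all windows. The S100a4 window holds 2 CG dinucleotides and those of Il1rl1 1 and 3, fewer than the median of 7. The Cav1 windows hold 13 and 16.

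Prr18 and Ptprt each had a pattern of their own. Prr18 (ENSMUSG00000055945, chromosome 17, 8337459 to 8344113), which encodes a proline-rich protein, was at 2.34, 43.3, 2.99, 82.6 and 139 in LPD lines 1, 4, 6, 20 and 40. In NPD lines 8, 15, 21, 36 and 51 it was at 2.63, 3.09, 233, 225 and 309. It was off in 2 lines of each diet and on in LPD line 40 and in 3 NPD lines, and it was the only gene with sequence of its own that kept its place when 3 lines on and 3 off were asked for. Ptprt (ENSMUSG00000053141, chromosome 2, 161521990 to 162661147), a receptor-type protein tyrosine phosphatase of the cell surface, was at 8.62, 8.56, 101, 101 and 4.72 in the LPD lines and at 84.7, 56.1, 3.50, 37.7 and 22.1 in the NPD lines. It was off in LPD line 40 and NPD line 21, and 6 lines lay between the thresholds, so that its values formed a range and not 2 levels.

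The remaining 4 genes have almost no sequence of their own. For every gene the share of its 31-base words found in no other gene was counted in the GENCODE M21 transcripts, since Salmon, the program the authors used to assign reads, starts from words of this length by default. That share was under 10% in 4 of the 14 genes (28.6%), against 4.30% of 19891 genes, with a median of 97.7% over all genes. An exact 0 in such a gene can be a failed estimate, so these genes are described as listed at 0. Their high values rest on the same sharing of reads among genes and are uncertain too.

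Gm28438 (ENSMUSG00000101939, chromosome 1, 24612775 to 24613119) is an unprocessed pseudogene of 345 bases that repeats mt-Nd3, the mitochondrial gene for a subunit of respiratory complex I. The sequences differ at 1 position, T3C, with the base of mt-Nd3 given before and that of Gm28438 after the position counted from the start of the gene. Both starts are printed to show how little tells them apart, with the differing base in capitals.

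Gm28438, chr1:24613060-24613119, minus strand: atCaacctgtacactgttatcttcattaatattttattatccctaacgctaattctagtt
mt-Nd3, chrM:9459-9518, plus strand: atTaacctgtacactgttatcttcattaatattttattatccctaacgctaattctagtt

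Gm28438 was at 153, 88.3 and 560 in LPD lines 1, 6 and 20 and at 30.9 and 34.0 in NPD lines 8 and 15. It was listed at 0 in LPD lines 4 and 40 and in NPD lines 21, 36 and 51. Meanwhile mt-Nd3 lay between 5026 and 7337 in all lines, and 99.0% of the words of Gm28438 occur in it. Gm10925, an unprocessed pseudogene 0.855 kb away, has 0% words of its own and varied from 0 to 106. Its highest values were in LPD line 20 and NPD line 8, and it did not meet the rule.

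Gm6565 (ENSMUSG00000079224, chromosome 6, 100604683 to 100605120) is a processed pseudogene of Ube2v2, a ubiquitin-conjugating enzyme variant, and 100% of its words occur in Ube2v2 and 99.3% in a further copy, Gm6361. It was at 49.9, 119, 46.2, 266 and 140 in the LPD lines and at 40.7, 0.758, 0, 44.8 and 208 in the NPD lines. Gm6361 ran the opposite way, listed at 0 in LPD line 20 and at 25.1 and 31.8 in LPD line 40 and NPD line 51, where Gm6565 was on, and at 229 and 241 in NPD lines 15 and 21, where Gm6565 was off. In LPD line 4 Gm6565 was at 119 and Gm6361 at 116. The 3 genes together lay between 1114 and 1458, a range of 1.31 times.

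Gm49388 (ENSMUSG00000108815, chromosome 7, 127785608 to 127803802) is a readthrough gene whose words occur to 66.8% in Setd1a, a histone methyltransferase, and to 32.2% in Hsd3b7, an enzyme of bile acid synthesis. It was at 102, 86.2, 280, 0 and 214 in the LPD lines and at 87.4, 0, 224, 199 and 163 in the NPD lines. It was thus on in 6 lines and listed at 0 in LPD line 20 and NPD line 15. Setd1a ranged from 1761 to 2917, and the 3 genes together from 2109 to 3108.

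Gm20388 (ENSMUSG00000092329, chromosome 8, 119910841 to 124345722) spans several genes and shares 97.5% of its words with Galnt2, which starts O-linked glycosylation of proteins. It was at 1.53, 0, 0, 0.752 and 358 in the LPD lines and at 108, 75.9, 409, 0 and 19.7 in the NPD lines. Galnt2 lay between 1344 and 1943, a range of 1.45 times. The sum of both genes lay between 1345 and 2049, a range of 1.52 times. The stacked plot shows the 4 genes beside the genes that hold their sequence. Whether reads of those genes set the states was not tested.

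**Figure D3:**
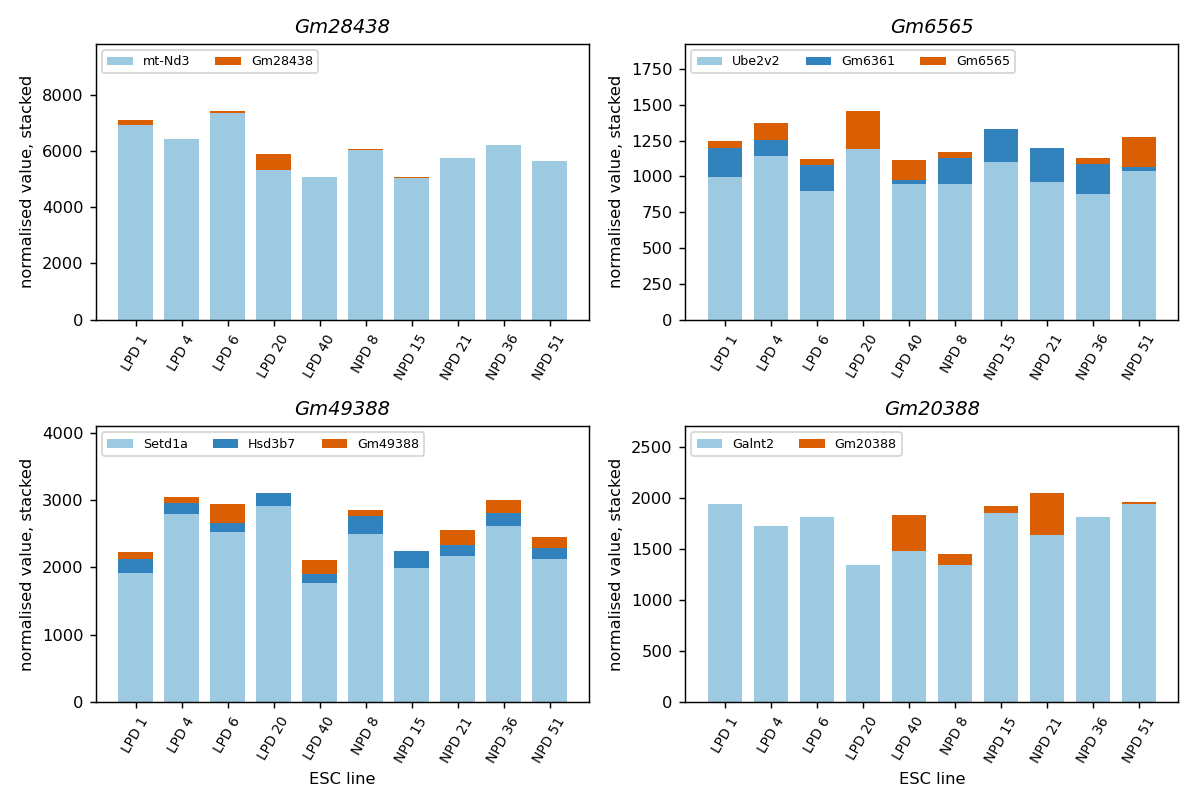
Normalised values in each ESC line, stacked from 0, of the 4 genes with almost no sequence of their own (orange) and of the genes that hold their sequence (light and dark blue). The orange part comes and goes between lines while the height of the whole bar varies by at most 1.52 times. Most of each bar is blue, so its height says little about the orange part. The whole varied by 1.47 times for Gm28438 and mt-Nd3 alone by 1.46, and by 1.52 times for Gm20388 and Galnt2 alone by 1.45. It was narrower for Gm6565, at 1.31 against 1.36 for Ube2v2, and for Gm49388, at 1.47 against 1.66 for Setd1a.

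The 14 genes lie on 10 chromosomes. Within 500 kb of another of them lie 0 of the 14, and 1.70% of the other autosomal genes outside the windows lie that close to 1 of the 14, a share at which 0 of 14 is no result about them. The smallest gap is 15.1 Mb, between Egr4 and Gm6565 on chromosome 6. Gm28438 and Il1rl1 are 15.8 Mb apart on chromosome 1, and Fosb and Gm49388 108 Mb on chromosome 7. Egr4 and Gm6565 do not share a leading pair of lines, and neither do the pairs on chromosomes 1 and 7.

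The range of the genes beside them was close to that of all genes. On each side the nearest gene whose mean reached 10 was taken, 28 genes in all, and 0 of these met both thresholds. The highest value + 1 over the lowest + 1 had a median of 1.90 in the 28 genes and of 1.82 in all genes tested, while the 22.8 to 561 of the 14 genes were fixed by the rule. Ado, 2.32 kb from Egr2, was at 371 to 428 in all 10 lines. Rtn2 and Ercc1 beside Fosb ranged from 98.9 to 173 and from 275 to 410. The same 2 lines were highest for 4 of the 28 flanking genes. These are Cav2, 17.2 kb from Cav1 and encoding a second caveolin, at 1.42 to 32.9, S100a6, 6.84 kb from S100a4 and of the same protein family, at 269 to 1266, Fbxo41 beside Egr4 at 5.26 to 28.3, and Srsf6 beside Ptprt at 3722 to 5894. Of all genes tested, 4.05% had LPD line 6 and NPD line 15 as their highest 2 lines. LPD lines 1 and 4 led 4.74% and LPD lines 6 and 20 led 5.84%. The count of 4 was not tested, and nothing is read from it. Among the 4, 1 neighbour each of Cav1 and S100a4 had the same leading lines at another range of values, and those of Il1rl1 and Ccdc80 did not.

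**Figure D4:**
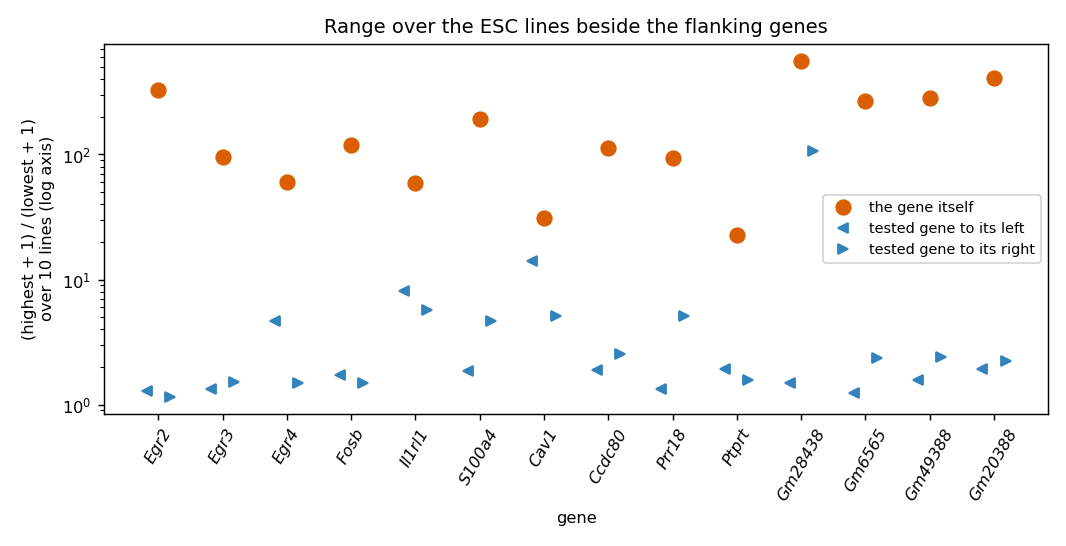
Range over the 10 lines, as (highest + 1) / (lowest + 1) on a log axis, of each of the 14 genes (orange) and of the nearest gene of mean 10 or more on its left and right (blue triangles). The genes stand at 22.8 to 561 and all but 1 of their neighbours, Gm10925 beside Gm28438, below all of them.

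The study asked how maternal LPD alters ESC lines, so the 14 genes were also compared between the diets. The rule did not use the diet, but it used the same values, and for Egr2, Egr3, Egr4 and Fosb the lines that were on were all LPD lines. The 4 factors had log2 fold changes of 2.62 to 3.36 towards LPD, and none of the 14 genes passed adjustment over the whole table. Log2 values of (value + 1) were compared with limma for 14354 genes, those whose mean reached 10 and all 14 among them. At an adjusted p under 0.1, 0 of the 14 genes passed, against 0% of all genes tested. At an unadjusted p under 0.05, 5 of 14 did, all higher in LPD, against 5.02% of all genes in either direction and 2.84% higher in LPD. The 5 are Egr2, Egr3, Egr4, Fosb and Gm6565, of which the first 4 share their leading lines and are not independent of each other, so nothing is read from this count. Gm6565 and the other 3 genes without sequence of their own enter the fit with zeros that can be failed estimates. Of the 10 other genes, 4 had a p under 0.05, and their median log2 fold change was -0.28 with 4 higher and 6 lower in LPD. In 0 of the 14 did the diets not overlap, against 1.02% of all genes. The median log2 fold change was -0.12 over the 14 genes, 6 of them higher and 8 lower in LPD, and 0.00 over all genes. The standard error had a median of 1.24 in the 14 and of 0.17 in all genes tested.

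Egr3 averaged 208 ± 221 in LPD and 8.04 ± 2.56 in NPD (SD, n = 5), a log2 fold change of 3.36 with a standard error of 0.97 (adjusted p = 0.665, limma; two-sided exact permutation test, p = 0.0476). Egr4 averaged 106 ± 100 and 12.3 ± 9.44 (SD, n = 5), a log2 fold change of 2.63 with a standard error of 0.81 (adjusted p = 0.681, limma; exact permutation p = 0.0397). For Egr2 and Fosb the log2 fold changes were 3.28 and 2.62, with exact permutation p of 0.0873 and 0.0952. The smallest p that 5 lines against 5 allow is 0.00794. Leaving out LPD line 40 brought the exact permutation p to 0.0159 for all 4 factors, the smallest that 4 lines against 5 allow. This value was fixed by the line dropped, because the other 4 LPD lines lay above every NPD line for each factor. The rule had used the same values, and no NPD line was on for these factors, so nothing is read from this p. In that fit the log2 fold change of Egr3 was 4.37. Dropping LPD line 4 instead brought it to 2.72 (exact permutation p = 0.0952). Over the 10 fits that each dropped a single line, the exact permutation p was under 0.05 in 1 fit for Egr3 and in 3 for Egr4, and it reached 0.190 for Fosb and 0.175 for Egr2. Without LPD line 4 and NPD line 15 together, the log2 fold changes of Egr2, Egr3, Egr4 and Fosb were 2.29, 2.67, 1.81 and 1.86 (adjusted p = 0.998 for each, limma). Without LPD line 40, Egr3 was also called over all genes tested, with an adjusted p of 0.0164 (limma), which ranged from 0.0164 to 1.00 over the 20 alternatives tried. That call likewise depends on removing the lowest line for Egr3. The p-values set the difference between diets against the spread between lines of different mothers.

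In Il1rl1, S100a4, Cav1 and Ccdc80 each diet had a high line, and their log2 fold changes were -0.19, -0.93, -1.27 and -0.72 with exact permutation p of 0.302 to 0.786. The 95% interval for Cav1 ran from -3.36 to 0.82. Prr18 averaged 54.1 ± 58.1 in LPD and 155 ± 142 in NPD (SD, n = 5), with an exact permutation p of 0.54. Gm6565, at 2.78 with an interval from 0.06 to 5.50, had an exact permutation p of 0.135, and rests on the values of 0 and 0.758 in NPD lines 21 and 15, which can be failed estimates. The plot of the diet differences shows intervals of several log2 units.

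**Figure D5:**
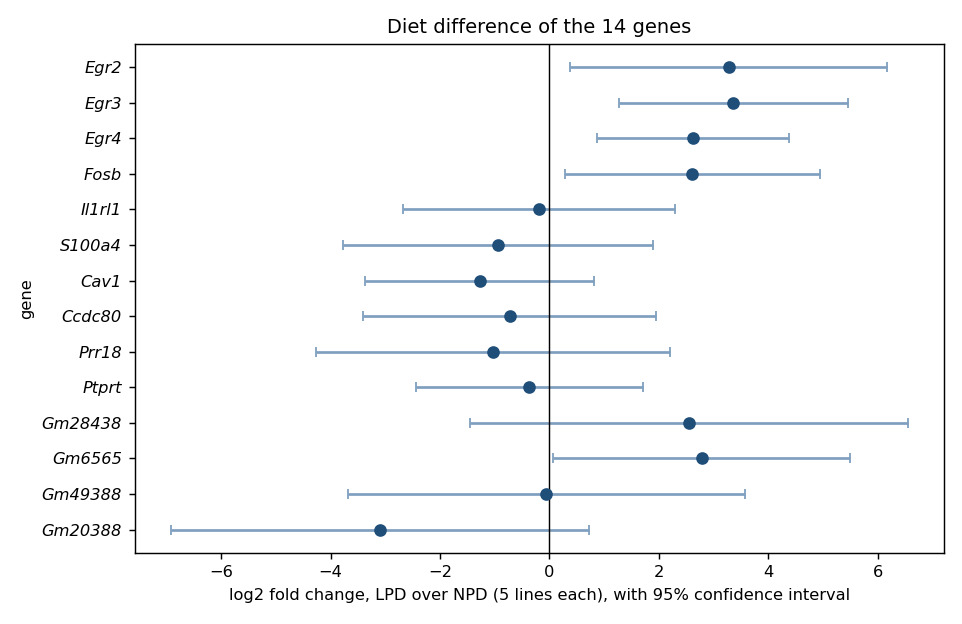
Log2 fold change of LPD over NPD for each of the 14 genes, on the scale of log2(value + 1), with its 95% confidence interval from limma (5 lines per diet). Gm28438, Gm6565, Gm49388 and Gm20388 have zeros that can be failed estimates. The intervals of Egr2, Egr3, Egr4, Fosb and Gm6565 lie above 0, and those of the other 9 genes include it.

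Some gene classes are known for on or off states in ESCs. Of the genes of 4 lists present in the table, 0 of 43 imprinted genes, 0 of 47 germline genes, 0 of 28 genes of the two-cell-like state and 0 of 15 primitive endoderm markers met the rule, and with 0.0740% of all 18927 genes meeting it a 0 in lists of this size is no result about them. Genes just outside the thresholds were Ndufa4l2 and Aqp8, whose second lowest values were 5.18 and 5.66, and Gm8203 and Cd44, whose second highest were 97.5 and 95.4. Just inside stood Cav1 and Ptprt with second lowest values of 4.81 and 4.72, and Ptprt and S100a4 with second highest of 101 and 102. With off at 10 or less and on at 50 or more, 74 genes met the rule. LPD line 6 and NPD line 15 led 18 of them (24.3%, against 4.05% of all genes tested). LPD lines 1 and 4 led 5 (6.76%, against 4.74%), close to the share of all genes. The 74 were chosen on the same values, so these shares are a description. Of the 74, 6 (8.11%) lay within 500 kb of another, against 5.92% of the other autosomal genes, and 15 (20.3%) had under 10% words of their own, against 4.30% of all genes.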

How the data were processed

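RNA from 10 ESC lines was sequenced. By the study's methods and processing notes the authors trimmed reads with cutadapt, assigned them to GRCm38 transcripts with Salmon, and deposited 1 signal per gene and line, by the name of the table an estimated count normalised with DESeq2. How genes were made from transcripts is not given in the sources used here. Totals were 16398672 to 18324979 per line, or 5848195 to 24173039 read equivalents, from the value of 1 read in genes with 1 transcript. Within a tolerance of 0.15 only 66.3% to 71.9% of low values were whole reads, so no count model was used.

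Genes were placed by GENCODE M21 (19918 of 20206 matched). Diets were compared with limma 3.58.1 in R 4.3.3 on log2(value + 1), with a mean-variance trend, no covariate, a mean of at least 10 and Benjamini-Hochberg adjustment over all genes, and by exact permutation over 252 assignments. The scripts were tested on simulated data. The rest was done in Python 3.11.15 (scipy 1.17.1, pandas 2.3.3, numpy 2.4.6). The 14 genes and the lists were chosen with earlier results of these data known. Named were all genes that lie near another, belong to a list, have the 12 largest ratios of second highest to second lowest value + 1, stand at a threshold or have the smallest p for diet, which covers all 14. Alternatives were other thresholds, pseudocounts, filters, scalings and limma settings, and each line left out.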

Additional observations from a re-analysis of the deposited data

Results flagged for a closer look

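In 12 of the 28 combinations of gene and diet, 1 of the 5 lines stood apart from the other 4 of its diet, with a gap to the next line over 0.71 of the whole range (Dixon's critical value for 5 samples). Chance flags about 1 in 20 such groups, and the genes were selected for a wide range, so such gaps were made likely by the choice. LPD line 6 stood apart for Il1rl1 at 135, S100a4 at 102, Cav1 at 140 and Ccdc80 at 140. NPD line 15 stood apart for the same genes, with Il1rl1 at 120, S100a4 at 193, Cav1 at 145 and Ccdc80 at 257. LPD line 20 stood apart for Gm28438 at 560, NPD line 51 for Gm6565 at 208, LPD line 40 for Gm20388 at 358 and NPD line 21 for Gm20388 at 409. For the immediate early factors no line stood apart by this measure, because LPD lines 1 and 4 were both high.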

How the results depend on the processing

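The number of genes on or off by line depends on the thresholds. Against 14 genes, 5 were found with off at 1 or less, 39 with on at 50 or more, 7 with on at 200 or more and 2 (Gm20388 and Prr18) with 3 lines off and 3 on, and between 7 and 14 with 1 line left out, 7 without NPD line 15 and 9 without LPD line 6. Chosen after seeing the data, off at 10 with on at 50 gave 74 genes, and leaving out LPD line 4 and NPD line 15 together gave 5 (Gm28438, Ptprt, Gm20388, Egr3 and Prr18). The shares of the immediate early and mesenchymal lists without a leading line or without Lum, and the diet values without LPD line 4 and NPD line 15, were also chosen after seeing the data. Rescaling to the same total kept 13 and lost Ptprt, and a share of at least 10% own words kept 10. Within 100 kb or 1 Mb, 0 genes lay near another, against 6 under the wider thresholds. The count called between diets over all genes was 1 with array weights and 0 to 40 with 1 line left out, 40 without LPD line 40, and that of the 14 genes was 0 to 1, with Egr3 called without LPD line 40. Of 168 single-gene diet values, 134 kept their direction and side of 0.05, 16, all of Egr3 and Egr4 with 1 line left out, lost a p under 0.05, 5 gained it and 13 changed sign, none of them past 0.05 as reported. The cause was not tested. No paired analysis was possible, since by the study's methods every line came from a different mother, assigned to either diet. Depth limits off states most in LPD line 4.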
